A study of Mus musculus with 20 samples.

Results

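Hemisection (HS) is a lesion that cuts through 1 side of the spinal cord, and the comparison described here set the 3 samples taken 2 weeks after HS against the 3 non-injured (NI) samples, 6 of the 20 samples in the series, over all 16810 genes of the table. The samples were taken by their labels, although the comparison and the gene lists were chosen with earlier results of these data known. Every sample, NI included, was RNA of eGFP-high cells sorted by flow cytometry from the spinal cord of mice heterozygous for CX3CR1+/eGFP, which carry eGFP in place of 1 copy of *Cx3cr1* and were 12 weeks old at injury. NI mice had no lesion. The other groups were HS at 72 h and 1 week, and full transection (FT) at 72 h, 1 week and 2 weeks. Of these, only HS 72 h and FT 2 weeks are tested against HS 2 weeks below. The reporter also marks monocytes and tissue macrophages, so the sort does not separate microglia from blood-derived macrophages at the lesion. In a parallel experiment the study found eGFP-high cells negative for LY6C at all time points. The study took most of them for microglia and could not exclude infiltrating macrophages among them. The study's methods state 3 biological replicates for each time point and for NI, but the labels do not give the animals behind each library. The methods also count more mice than libraries for NI and for HS, so a library may hold RNA of several mice. The p-values measure the spread between these samples, which may be in part technical.

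Microglia are the resident macrophages of the central nervous system. In undamaged tissue they express sensing receptors such as the purine receptor P2RY12, and around dying cells and myelin debris they turn on genes for phagocytosis, lysosomal digestion, export of cholesterol and secreted growth factors. Type I and type II interferons act on them through STAT transcription factors to induce antiviral proteins, chemokines and the antigen-presenting MHC molecules.

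Levels are given as CPM, read counts per library size as normalized by the authors, and not per length. The sorted cells carried their defining markers in all 6 samples. *P2ry12* had 5085, 3845 and 3739 CPM in NI and 2227, 2892 and 2002 CPM 2 weeks after HS, with *Tmem119* at 1196, 1263 and 1257 and 787, 447 and 835 CPM. *Cx3cr1*, whose promoter drives the reporter, had 2017, 1997 and 2040.2 CPM in NI and 1198, 1821 and 1509 CPM after HS. Depth was 6040762 to 13937586 reads in NI and 4589874 to 8645472 reads after HS, so that 1 read was worth 0.0596 to 0.129 CPM in NI and 0.121 to 0.214 CPM after HS. Log2 differences are HS minus NI of log2(CPM + 0.5), ± the standard error of a limma fit to all 20 samples, and a gene was called, or is said to have risen or fallen, at an adjusted p under 0.05 and at least 2-fold. Adding 0.5 CPM makes the change of low genes look smaller.

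Samples of both groups stood apart in ways that the labels do not give. *Fth1*, ferritin heavy chain, had 3797, 3472 and 413 CPM in NI replicates 1, 2 and 3 and 6693, 682 and 7988 CPM in HS 2 weeks replicates 1, 2 and 3, so that NI replicate 3 and HS replicate 2 lay far below the rest of their groups. Over the 20 libraries *Fth1* was at 413 to 1400.1 CPM in 8 and at 3472 to 9114 CPM in 12, with each of the 7 groups holding at least 1 of the 8. With the group means in the fit, 162 genes were at least 2-fold lower in those 8 libraries at an adjusted p under 0.05, among them *Lag3* (log2 difference -3.66 ± 0.19 between the 8 and the 12), *Rpl13* (-2.96 ± 0.13), *Bsg* (-2.10 ± 0.14) and *Apoe* (-1.75 ± 0.24). This split was seen after the data were examined, so these differences are a description, and what sets the libraries apart was not tested. A term for it in the fit raised the number of called genes from 543 to 589 and kept all 543. NI and HS 2 weeks each hold 1 of the 8 libraries, so the term could not change the HS minus NI log2 difference. Only the standard errors and p-values changed, so keeping the 543 does not check the calls against the split. *Lag3*, an immune receptor gene, is a gene that the split touches: it had 103, 103 and 6.14 CPM in NI and 344, 27.4 and 238 CPM after HS, with a log2 difference of 1.67 ± 1.42 (adjusted p = 0.643) without the term and 1.67 ± 0.33 (adjusted p = 0.00212) with it. Leaving out the 8 libraries gave 515 called genes.

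**Figure D1:**
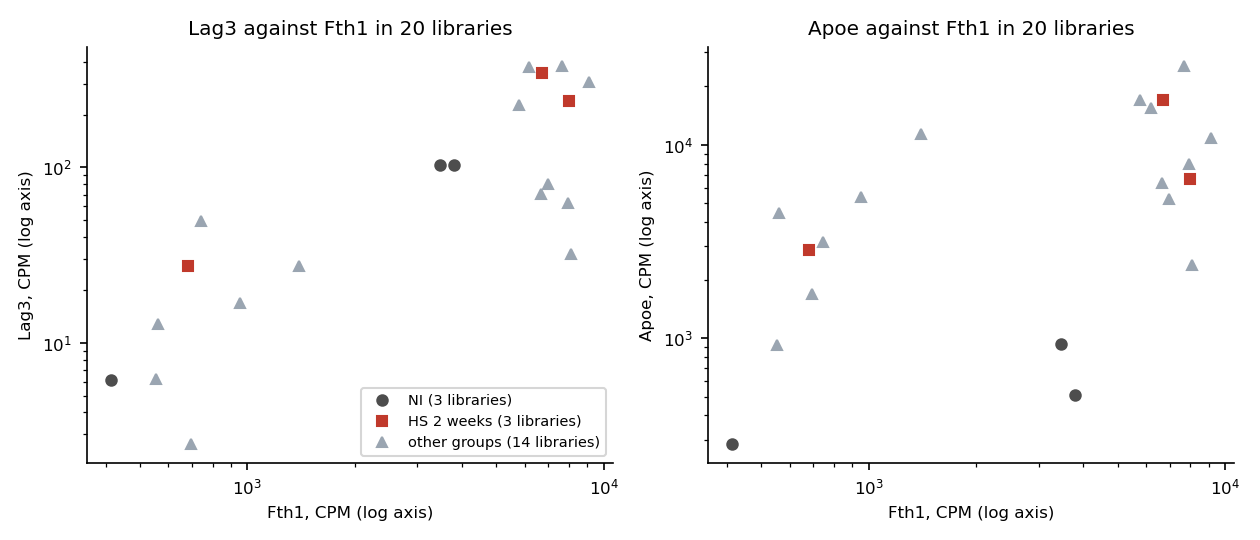
Level of *Lag3* and of *Apoe* (CPM, log axes) against *Fth1* (CPM, log axis) in each of the 20 libraries, with NI as circles, HS 2 weeks as squares and the other groups as triangles. *Fth1* leaves a gap between 1400.1 and 3472 CPM, and 1 NI and 1 HS 2 weeks library lie on its low side.

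At 2 weeks after HS, 409 genes were higher and 134 were lower than in NI, that is 2.43% and 0.797% of all genes tested. The HS samples all lay above the NI samples for 14.5% of genes and all below them for 10.3%, and for all 409 called higher and 133 of 134 called lower. Of the rises, 107 were at least 4-fold and 26 at least 8-fold, against 16 and 1 of the falls. The genes called higher took 6.52 to 6.67% of the summed CPM of an NI sample and 13.5 to 16.7% of an HS sample, and the genes called lower took 0.360 to 0.476% and 0.0942 to 0.143%. The columns do not add up to the same total, being 777426 to 830481 CPM in NI and 966363 to 1044171 CPM after HS. Scaled to a common total, 244 genes were called higher and 434 lower, so that the share of calls that were higher went from 75.3% to 36.0% and the median of all genes from -0.01 to -0.29, while the genes called lower included all 134. In RNA of a sorted population, fewer cells of a type and less RNA per cell cannot be told apart.

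The largest rise was in *Gpnmb*. *Gpnmb*, a transmembrane glycoprotein of phagocytes (chr6:49036546-49070929 in GRCm38), had 2.80, 2.57 and 3.36 CPM in NI and 252, 237 and 244 CPM after HS (log2 difference 6.17 ± 0.29, adjusted p = 6.99e-12). *Spp1*, the secreted matrix protein osteopontin (chr5:104435118-104441050), had 79.4, 94.8 and 108 CPM in NI and 3499, 4389.9 and 3206 CPM after HS (log2 difference 5.29 ± 0.25, adjusted p = 6.99e-12). No HS sample came near the NI range for either gene. *Cst7*, the cysteine protease inhibitor cystatin F, had 20.3, 24.8 and 33.96 CPM in NI and 603, 709.5 and 664 CPM after HS (log2 difference 4.64 ± 0.27, adjusted p = 1.09e-10). *Igf1*, insulin-like growth factor 1, had 8.34, 5.79 and 8.73 and 205, 232 and 161 CPM (log2 difference 4.62 ± 0.26, adjusted p = 1.09e-10). The spread within each group was small beside these gaps, which picking the largest rises without overlap favours. *Fn1*, the matrix protein fibronectin, went from 13.5, 13.9 and 11.4 to 335, 281 and 224 CPM (log2 difference 4.37 ± 0.30, adjusted p = 1.65e-09), and *Lgals3*, galectin 3, from 5.66, 8.75 and 9.98 to 155, 114 and 164 CPM (log2 difference 4.09 ± 0.32, adjusted p = 1.8e-08). *Mmp12*, macrophage elastase, had 4.71, 5.28 and 3.17 CPM in NI and 82.5, 64.99 and 52.7 CPM after HS (log2 difference 3.79 ± 0.32, adjusted p = 6.81e-08).

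**Figure D2:**
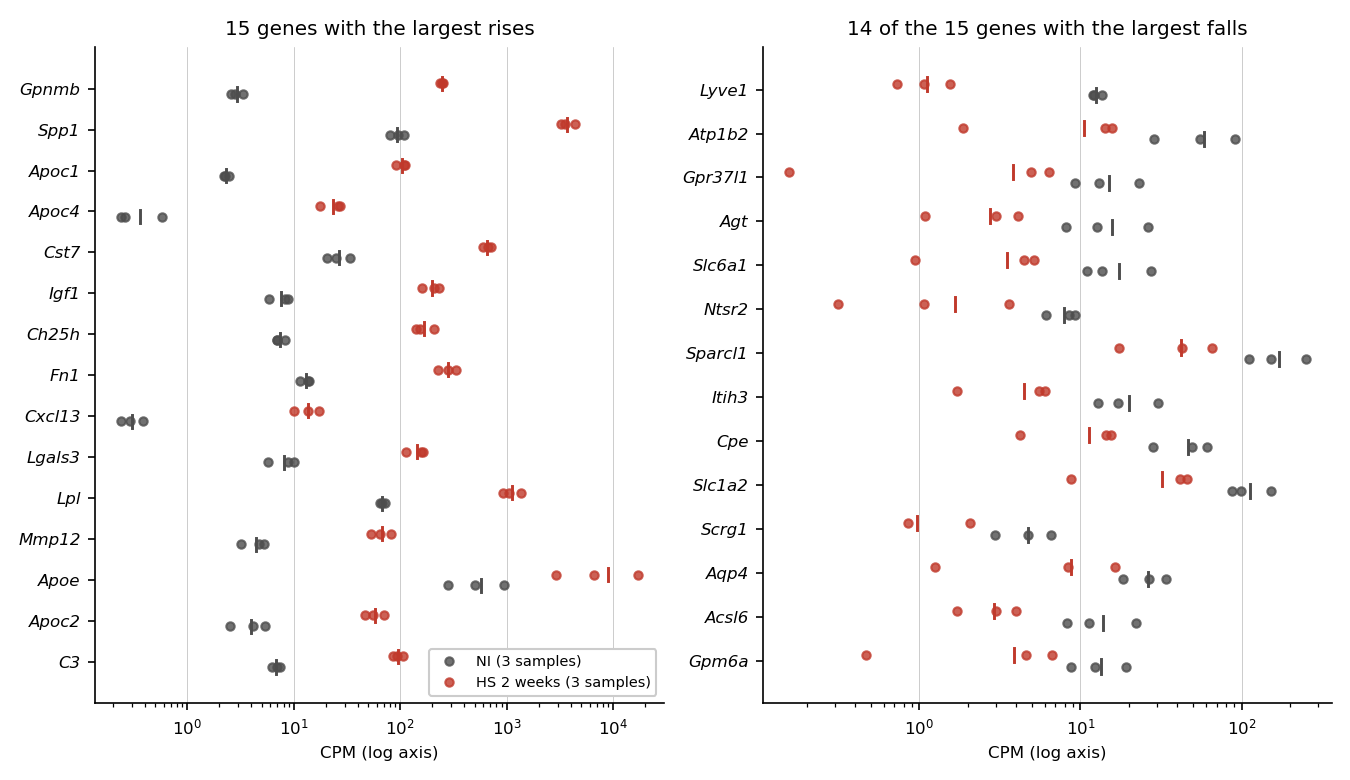
CPM on a log axis of the 15 genes with the largest rises (left) and 14 of the 15 with the largest falls (right), with 1 point for each NI (grey) and HS 2 weeks (red) sample and a bar at the group mean. No point of 1 group reaches the other group for any gene shown, as the choice of genes required, and HS replicate 1 gives the lowest red point for most of the falls (its *Scrg1* value of 0 cannot be drawn on a log axis).

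A list of 42 genes of the damage response, the set that microglia turn on around degenerating tissue, had 34 called higher against 2.43% of all genes, and the other 8 were not called. All 42 differences were positive, with a median of 1.66 against -0.01 over all genes. The sum of the list was 37882, 35329.8 and 35716 CPM in NI and 117135, 90829.8 and 111453 CPM after HS. The members with the most CPM, which is not per length, were lysosomal proteases. *Ctsb*, cathepsin B, had 5296, 4568 and 4039 CPM in NI and 15110.1, 11836 and 15938 CPM after HS (log2 difference 1.62 ± 0.32, adjusted p = 0.00266), and *Ctsd*, cathepsin D, had 14524, 13833 and 13521 and 39125, 26592 and 41279 CPM (log2 difference 1.33 ± 0.38, adjusted p = 0.0425). The *Ctsd* call was lost in 11 alternative fits, among them the fits that left out NI replicate 1, 2 or 3. *Axl*, a receptor for apoptotic cells, had 66.9, 86.4 and 82.9 and 576, 455 and 479 CPM (log2 difference 2.67 ± 0.22, adjusted p = 5.83e-08), and *Csf1*, a growth factor of microglia and macrophages, had 28.7, 46.7 and 42.1 and 149, 124 and 150.1 CPM (log2 difference 1.86 ± 0.28, adjusted p = 0.000163).

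Of 36 genes of lipid handling, 17 were called higher and 0 lower, against 2.43% and 0.797% of all genes, with a median difference of 0.78. *Apoc2*, *Apoc4*, *Apoc1* and *Apoe* are neighbours on chr7:19671579-19699188, with no other gene of the table between them, and all 4 were called higher. The ends of this stretch were set by the called genes. *Apoc1* had 2.26, 2.45 and 2.21 CPM in NI and 108, 91.3 and 112 CPM after HS (log2 difference 5.21 ± 0.21, adjusted p = 5.24e-13). *Apoc4* was close to its detection limit in NI, at 0.238, 0.257 and 0.576 CPM or at most 6 reads, and had 26.2, 17.5 and 26.9 CPM after HS (log2 difference 4.81 ± 0.29, adjusted p = 2.26e-10). *Apoc2*, the activator of lipoprotein lipase, had 2.50, 4.12 and 5.37 and 55.98, 46.6 and 70.1 CPM (log2 difference 3.72 ± 0.26, adjusted p = 3.49e-09). As in every gene called higher, the lowest HS sample of these 3 genes was above the highest NI sample, here by a wide gap. *Apoe*, the main lipid carrier of the brain, had 508, 939 and 283 CPM in NI and 17046, 2878 and 6650.3 CPM after HS (log2 difference 3.74 ± 0.78, adjusted p = 0.00465), the lowest value of each group lying in the sample with low *Fth1*. With the term for those libraries the same difference had a standard error of 0.41 (adjusted p = 1.34e-06). Where transcripts of these neighbours overlap, their reads may be split between the genes.

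Other members of the list take up, store or export lipid. *Lpl*, lipoprotein lipase, had 64.1, 72.5 and 66.95 CPM in NI and 1362, 1060.3 and 929 CPM after HS (log2 difference 4.01 ± 0.23, adjusted p = 1.09e-10). *Ch25h*, which makes the oxysterol 25-hydroxycholesterol, had 6.97, 8.24 and 6.91 and 206, 154 and 142 CPM (log2 difference 4.40 ± 0.29, adjusted p = 9.92e-10). *Fabp5*, a carrier of fatty acids, had 21.7, 15.7 and 15.6 and 96.5, 136 and 133 CPM (log2 difference 2.75 ± 0.23, adjusted p = 6.65e-08). As in every gene called higher, the lowest HS sample was above the highest NI sample in each of the 3. The cholesterol exporters *Abca1* (1.17, adjusted p = 0.000346) and *Abcg1* (1.84, adjusted p = 3.07e-06), the lipid droplet protein *Plin2* (1.77, adjusted p = 3.86e-06), the scavenger receptors *Msr1* (2.13, adjusted p = 0.000111) and *Olr1* (2.38, adjusted p = 6.21e-07) and the enzymes of cholesterol ester formation and breakdown, *Soat1* (1.29, adjusted p = 0.00051) and *Lipa* (1.11, adjusted p = 0.00323) were also called, as log2 differences. *Npc2*, which moves cholesterol out of lysosomes and had the most CPM of the list in NI, was at 1012, 882 and 967 and 2091, 2186 and 2393 CPM (log2 difference 1.22 ± 0.22, adjusted p = 0.00139).

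Of 57 lysosomal genes, 20 were called higher and 0 lower, against 2.43% and 0.797% of all genes, and the median difference was 0.65. The number of rises fell to 9 when every column was scaled to a common total and to 7 after quantile normalization. Over all genes these settings gave 244 and 389 rises in place of 409. *Cd63*, a membrane protein of late endosomes, had 451, 364 and 474 CPM in NI and 2062, 2086 and 2214 CPM after HS (log2 difference 2.31 ± 0.23, adjusted p = 5.75e-07). *Dpp7*, a dipeptidyl peptidase, had 60.1, 69.1 and 70.7 and 199, 181 and 233 CPM (log2 difference 1.61 ± 0.18, adjusted p = 2.98e-06), and *Ctse*, cathepsin E, had 4.59, 5.66 and 4.22 and 32.9, 25.7 and 26.9 CPM (log2 difference 2.45 ± 0.27, adjusted p = 3.16e-06). Each group was tight in these genes, which picking the smallest adjusted p of the list favours. *Galns*, which degrades glycosaminoglycans, had 18.8, 18.9 and 20.5 and 83.3, 46.8 and 65.8 CPM (log2 difference 1.69 ± 0.23, adjusted p = 5.97e-05), and *Gla*, alpha-galactosidase A, had 15.3, 16.7 and 17.2 and 52.2, 62.9 and 56.5 CPM (log2 difference 1.77 ± 0.25, adjusted p = 9.54e-05). *Atp6v0d2*, a subunit of the proton pump, was low in NI at 1.61, 1.29 and 0.767 CPM and had 5.30, 7.05 and 4.35 CPM after HS (log2 difference 1.83 ± 0.30, adjusted p = 0.00051). *Ctss*, cathepsin S, with *Ctsd* among the members with the most CPM, was not called, at 12178, 8965 and 10266 CPM in NI and 13971, 19358 and 15308 CPM after HS (log2 difference 0.63 ± 0.33, adjusted p = 0.365). *Grn*, progranulin, had 1766, 1571 and 1581 and 3616, 2633 and 4202 CPM (log2 difference 1.06 ± 0.26, adjusted p = 0.015), a call that was lost in 6 alternative fits, the fit with scaled columns included.

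Lysosomal genes are known targets of the transcription factor TFEB, which binds an E-box, and the core CACGTGA was searched on both strands. The sequences shown, to let the core be seen in its place, come from the 250 bases before the RefSeq start (GRCm38.p6) of the 3 called lysosomal genes with the smallest adjusted p whose matches lay outside annotated exons (*Gla* was passed over for this reason). Each is the stretch free of GENCODE exons, 5' to 3' on the strand of the gene, with every match in capitals. They are chr2:25356360-25356582 (minus strand) for *Dpp7*, chr11:119267713-119267886 (plus strand) for *Gaa*, which encodes acid alpha-glucosidase, and chr9:114400828-114401075 (plus strand) for *Glb1*, a beta-galactosidase (log2 difference 1.04 ± 0.19, adjusted p = 0.00122).
Dpp7: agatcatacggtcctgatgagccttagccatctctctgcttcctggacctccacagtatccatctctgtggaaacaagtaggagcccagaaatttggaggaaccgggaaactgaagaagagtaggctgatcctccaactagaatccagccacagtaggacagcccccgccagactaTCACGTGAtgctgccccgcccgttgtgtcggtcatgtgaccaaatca
Gaa: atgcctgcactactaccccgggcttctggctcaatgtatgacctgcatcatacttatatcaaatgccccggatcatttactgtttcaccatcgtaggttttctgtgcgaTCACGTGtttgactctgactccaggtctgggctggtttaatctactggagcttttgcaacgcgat
Glb1: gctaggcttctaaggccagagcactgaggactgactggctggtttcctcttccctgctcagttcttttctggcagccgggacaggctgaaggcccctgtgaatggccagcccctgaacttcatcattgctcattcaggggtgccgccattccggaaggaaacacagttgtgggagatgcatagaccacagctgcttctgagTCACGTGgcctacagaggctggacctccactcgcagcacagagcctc
The core overlaps its own reverse complement, so that a match on both strands gives 8 capitals in place of 7, as in *Dpp7*. In the full windows, which run 50 bases past the start, the core was held by 4.29% of 27025 genes with a window. Of the 57 lysosomal genes, 43 had a window and 12 of these held it, as did 7 of 15 called members with a window. The windows cover under 80% of the list, so the share over the list is void as a check. A match is a string of letters in this window and not a site.

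Of 50 genes induced by interferon, 28 were called higher and 0 lower, against 2.43% and 0.797% of all genes. All 50 differences were positive, with a median of 1.13. The list summed to 1911, 1651 and 1779 CPM in NI and to 3749, 4484 and 4892 CPM after HS, with no overlap. *Oas1a*, which makes the oligoadenylate signal of antiviral RNA decay, had 7.51, 6.31 and 6.62 CPM in NI and 26.04, 31.4 and 36.8 CPM after HS (log2 difference 2.12 ± 0.23, adjusted p = 2.83e-06). *Zbp1*, a sensor of Z-form nucleic acid, had 2.50, 2.06 and 2.69 and 9.51, 17.3 and 16.2 CPM (log2 difference 2.31 ± 0.27, adjusted p = 4.82e-06). *Isg15*, a ubiquitin-like modifier, had 8.88, 9.91 and 11.1 and 23.1, 29.3 and 41.5 CPM (log2 difference 1.57 ± 0.20, adjusted p = 2.14e-05). HS replicate 1 gave the lowest HS value for these 3 genes and still lay above every NI sample, as in every gene called higher. *Lgals3bp*, a secreted galectin 3 binding protein, had the most CPM of the called members, at 241, 182 and 185 and 1192, 919.9 and 1297 CPM (log2 difference 2.48 ± 0.24, adjusted p = 4.4e-07). *Irf1*, an interferon regulatory factor, was not called, at 156, 169.6 and 167 and 113, 216 and 279 CPM (log2 difference 0.21 ± 0.30, adjusted p = 0.814). The transcription factor *Irf7* was called (log2 difference 1.94 ± 0.29, adjusted p = 0.000126).

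*Ifit2*, *Ifit3* and *Ifit1*, proteins that bind viral RNA, are neighbours of *Ch25h* and *Lipa* on chr19:34473778-34650009, where 6 of the 8 genes in the table were called higher. *Ifit3* had 16.3, 9.52 and 9.40 CPM in NI and 27.1, 47.5 and 53.3 CPM after HS (log2 difference 1.81 ± 0.34, adjusted p = 0.0018). A second run lay on chr1:173566283-173766943, where all 5 genes in the table were called, among them *Ifi204*, a member of the PYHIN family of DNA sensors, at 29.97, 19.3 and 23.9 and 59.9, 108 and 84.8 CPM (log2 difference 1.75 ± 0.23, adjusted p = 3.24e-05). The ends of both runs were set by called genes lying close together, so the counts inside them were largely fixed by that choice. The *Ifit* genes resemble each other, as do members of the PYHIN family, so reads may be split within each family.

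Interferon-induced promoters are known to carry the interferon-stimulated response element, bound by STAT and IRF factors, and the core GAAANNGAA (N any base) was searched on both strands. The 3 called members with the smallest adjusted p that hold it are shown as for the lysosomal genes, at chr5:92328080-92328329 (*Cxcl9*), chr5:120907526-120907775 (*Oas1a*) and chr4:156200819-156201068 (*Isg15*), each on the minus strand.
Cxcl9: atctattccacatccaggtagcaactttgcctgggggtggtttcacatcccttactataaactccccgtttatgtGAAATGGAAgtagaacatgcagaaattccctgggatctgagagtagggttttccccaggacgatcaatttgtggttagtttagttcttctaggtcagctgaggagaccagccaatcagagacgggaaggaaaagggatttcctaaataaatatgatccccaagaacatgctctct
Oas1a: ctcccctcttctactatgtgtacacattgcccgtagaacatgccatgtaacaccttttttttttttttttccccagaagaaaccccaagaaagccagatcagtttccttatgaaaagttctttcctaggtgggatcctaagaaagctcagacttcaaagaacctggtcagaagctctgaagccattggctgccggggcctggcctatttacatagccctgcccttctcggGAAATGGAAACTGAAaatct
Isg15: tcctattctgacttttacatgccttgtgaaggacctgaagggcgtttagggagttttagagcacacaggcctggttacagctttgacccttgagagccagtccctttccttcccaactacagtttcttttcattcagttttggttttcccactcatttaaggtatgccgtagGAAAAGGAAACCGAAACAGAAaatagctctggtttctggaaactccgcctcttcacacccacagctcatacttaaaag
Counted back from the start, the match began 175 bases away in *Cxcl9*, 20 in *Oas1a* and 78 in *Isg15*, where overlapping matches gave 2 and 3 cores in a row in *Oas1a* and *Isg15*. The core was in the window of 9.76% of the 27025 genes. On the interferon list, 38 of 50 genes had a window and 21 of these held it, as did 11 of 18 called members with a window, which is again under 80% of the list and void as a check.

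Of 21 genes of MHC class I, 4 were called higher and 0 lower (2.43% and 0.797% of all genes), with a median of 0.78. *Nlrc5*, the transactivator of class I genes, had 10.5, 11.97 and 10.2 CPM in NI and 32.7, 46.4 and 36.7 CPM after HS (log2 difference 1.77 ± 0.20, adjusted p = 3.66e-06). *H2-K1*, a classical class I heavy chain, had 452, 473 and 442 and 912, 1115 and 1431 CPM (log2 difference 1.31 ± 0.22, adjusted p = 0.000502), and *Tap1*, which carries peptides to it, had 47.97, 44.8 and 41.8 and 108, 73.3 and 115 CPM (log2 difference 1.10 ± 0.18, adjusted p = 0.000572). *B2m*, the common light chain, had 3662, 2845 and 3899 and 6104, 9616 and 6234 CPM, with no overlap, and missed the threshold (log2 difference 1.06 ± 0.33, adjusted p = 0.0682). The count went to 2 with scaled columns and to 7 with the term for the low *Fth1* libraries, settings that called 244 and 430 of all genes higher. Heavy chain genes of this family are near copies, so reads may be split between them. Of 15 genes of MHC class II, 1 was called: *Cd40*, a costimulatory receptor (log2 difference 1.16 ± 0.33, adjusted p = 0.0454), lost in 10 alternative fits. *Cd74*, the invariant chain, had 1535, 1505 and 1393 and 1700.0, 3086 and 4415 CPM (log2 difference 0.95 ± 0.39, adjusted p = 0.213).

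Among 27 chemokines and chemokine receptors, 9 were called higher and 1 lower (2.43% and 0.797% of all genes). *Cxcl13*, which attracts B cells, had 0.238, 0.386 and 0.288 CPM in NI, at most 4 reads, and 17.3, 13.5 and 10.02 CPM after HS (log2 difference 4.10 ± 0.32, adjusted p = 1.73e-08). *Ccl5* had 7.69, 10.3 and 10.9 and 83.9, 77.8 and 75.1 CPM (log2 difference 2.98 ± 0.26, adjusted p = 1.18e-07), and *Cxcl9*, which like *Cxcl10* attracts T cells, had 0.953, 2.32 and 1.15 and 10.9, 16.03 and 14.7 CPM (log2 difference 2.91 ± 0.27, adjusted p = 3.38e-07). *Cxcl10* had 14.9, 12.4 and 17.1 and 33.5, 92.1 and 73.7 CPM (log2 difference 2.02 ± 0.34, adjusted p = 0.000563), the lowest HS value again in replicate 1. *Cxcl16*, a scavenger receptor and chemokine, had 58.6, 60.5 and 57.4 and 184, 151 and 253 CPM (log2 difference 1.69 ± 0.23, adjusted p = 3.46e-05). The fall was *Pf4*, platelet factor 4, which border macrophages express, at 50.9, 52.3 and 65.9 and 16.5, 17.96 and 18.96 CPM (log2 difference -1.63 ± 0.24, adjusted p = 0.000115).

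Of 25 genes of cytokines and NF-kB, 2 were called higher and 0 lower (2.43% and 0.797% of all genes). *Il1rn*, the antagonist of the IL-1 receptor, had 7.33, 10.04 and 8.15 CPM in NI and 52.1, 71.8 and 87.2 CPM after HS (log2 difference 2.96 ± 0.33, adjusted p = 2.9e-06), whereas *Il1b* itself had 46.00, 65.2 and 82.1 and 94.7, 288 and 263 CPM and was not called (log2 difference 1.61 ± 0.71, adjusted p = 0.251). The other call was *Il12b* (log2 difference 1.41 ± 0.35, adjusted p = 0.017), lost in 6 alternative fits. Of 19 Toll-like receptor genes, 1 was called higher and 1 lower (2.43% and 0.797% of all genes). *Tlr2*, which senses bacterial lipoproteins, had 186, 168 and 159 and 433, 531 and 489 CPM (log2 difference 1.50 ± 0.20, adjusted p = 2.9e-05), and *Tlr5*, the flagellin receptor, had 9.35, 7.34 and 9.11 and 1.72, 3.21 and 4.11 CPM (log2 difference -1.43 ± 0.29, adjusted p = 0.00407). The remaining 17 were not called. Of 21 complement genes, 3 were called higher (2.43% of all genes): *C3*, the central component, at 6.20, 7.46 and 6.91 and 106, 94.1 and 84.7 CPM (log2 difference 3.70 ± 0.21, adjusted p = 1.09e-10), *Cfb*, factor B of the alternative pathway (log2 difference 2.79 ± 0.41, adjusted p = 0.00014), and *C4b* (log2 difference 1.57 ± 0.31, adjusted p = 0.00303). *C1qb*, a chain of C1q and the member with the most CPM, had 9007, 7371 and 8069 and 10392, 8900.5 and 13432 CPM (log2 difference 0.40 ± 0.29, adjusted p = 0.554).

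Of 37 phagocytic and inhibitory receptors, 9 were called higher and 0 lower (2.43% and 0.797% of all genes). *Clec7a*, the beta-glucan receptor dectin 1, had 63.7, 79.4 and 84.5 CPM in NI and 813, 839 and 719.8 CPM after HS (log2 difference 3.38 ± 0.23, adjusted p = 1.42e-09). *Itgax*, the integrin CD11c, had 13.9, 16.1 and 15.8 and 201, 145 and 153 CPM (log2 difference 3.39 ± 0.28, adjusted p = 4.3e-08), and *Cd300lf*, a lipid-binding receptor, had 6.49, 5.41 and 4.89 and 43.04, 42.97 and 43.8 CPM (log2 difference 2.85 ± 0.24, adjusted p = 5.5e-08). *Trem2*, the lipid sensor with the most CPM of the list in NI, had 1733, 1739 and 1807 and 2883, 1836 and 3169 CPM and was not called (log2 difference 0.54 ± 0.23, adjusted p = 0.23). Matrix and adhesion genes gave 14 rises of 41 (2.43% of all genes), among them *Anxa2*, annexin A2, at 12.9, 15.7 and 13.3 and 93.7, 99.2 and 91.9 CPM (log2 difference 2.73 ± 0.21, adjusted p = 1.89e-08) and the intermediate filament gene *Vim* at 22.4, 25.2 and 19.1 and 95.4, 87.4 and 100.1 CPM (log2 difference 2.07 ± 0.28, adjusted p = 4.42e-05). Growth factors and guidance genes gave 7 rises of 30 (2.43% of all genes), with the VEGF receptors *Flt1* (1.42, adjusted p = 0.00168) and *Nrp1* (1.02, adjusted p = 0.000798) beside *Igf1* and *Csf1*. The *Nrp1* call was lost in 9 alternative fits, among them scaled columns, both edgeR tests and DESeq2. None of these 3 lists had a gene called lower.

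Of 32 redox and iron genes, 8 were called higher and 0 lower (2.43% and 0.797% of all genes). *Cybb*, the catalytic subunit of the phagocyte NADPH oxidase, had 52.4, 55.5 and 51.7 CPM in NI and 298, 294 and 239 CPM after HS (log2 difference 2.36 ± 0.24, adjusted p = 6.91e-07). *Lyz2*, lysozyme, had 711, 695 and 809 and 3308, 3515 and 3267 CPM (log2 difference 2.19 ± 0.27, adjusted p = 1.05e-05), and it shares sequence with *Lyz1*, so that reads may be split. Glycolysis gave 5 rises of 23 (*Pgk1*, *Ldha*, *Aldoa*, *Gapdh* and *Pkm*), beside 2.43% of all genes. *Pgk1* had 93.01, 85.6 and 70.98 and 192, 221 and 204 CPM (log2 difference 1.31 ± 0.19, adjusted p = 9.11e-05) and *Pkm* 449.9, 440.1 and 388 and 1232, 875 and 1321 CPM (log2 difference 1.40 ± 0.26, adjusted p = 0.00151). With columns scaled to a common total, 1 of the 5 was called. Of 82 ribosomal protein genes, 2 were called higher (*Rpsa* and *Rpl3*), a share near the 2.43% of all genes, while 79 differences were positive, the median was 0.73, and 32 passed the adjusted p with no fold limit. With scaled columns 0 were called by limma, and the median was 0.41. The list took 35462, 28836 and 34702 CPM in NI and 52324, 55999 and 59248 CPM after HS. Of 78 genes of oxidative phosphorylation, 2 were called higher, again near 2.43%. These were *Cox6a2*, a muscle-type subunit of cytochrome oxidase, at 7.69, 4.76 and 4.41 and 36.96, 22.4 and 40.3 CPM (log2 difference 2.46 ± 0.25, adjusted p = 7.81e-07), and *Ndufa1*.

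Of 39 genes of unstimulated microglia, 2 were called lower and 1 higher, against 0.797% and 2.43% of all genes, and the median was -0.27. Only 9 of the 39 differences were positive. The HS samples all lay below the NI samples for 18 of the 39 and all above them for 2, against 10.3% and 14.5% of all genes. *Upk1b*, a tetraspanin, had 60.00, 43.8 and 42.5 CPM in NI and 18.7, 21.2 and 16.4 CPM after HS (log2 difference -1.34 ± 0.25, adjusted p = 0.00168), and *Slc2a5*, a fructose transporter, had 609, 479 and 438 and 221, 243 and 268 CPM (log2 difference -1.05 ± 0.24, adjusted p = 0.00928). The *Slc2a5* call was lost without NI replicate 1 and without HS replicate 1. *Gpr84*, a receptor for medium-chain fatty acids, went the other way, at 173, 153 and 154 and 336, 351 and 394 CPM (log2 difference 1.17 ± 0.17, adjusted p = 0.000121). *Tmem119*, given above, passed the adjusted p without reaching 2-fold (log2 difference -0.90 ± 0.22, adjusted p = 0.015). *P2ry12* did not pass (log2 difference -0.83 ± 0.34, adjusted p = 0.21), although every HS sample was below every NI sample. *Csf1r*, the receptor for CSF1, was not called (log2 difference 0.03 ± 0.27, adjusted p = 0.977). With columns scaled to a common total, 7 of the 39 were called lower and 0 higher, and after quantile normalization 8 and 0. The lists that the study drew on these same samples gave 9 rises of 12 for pro-inflammatory and 6 of 9 for anti-inflammatory genes, which is not independent evidence of either direction.

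**Figure D3:**
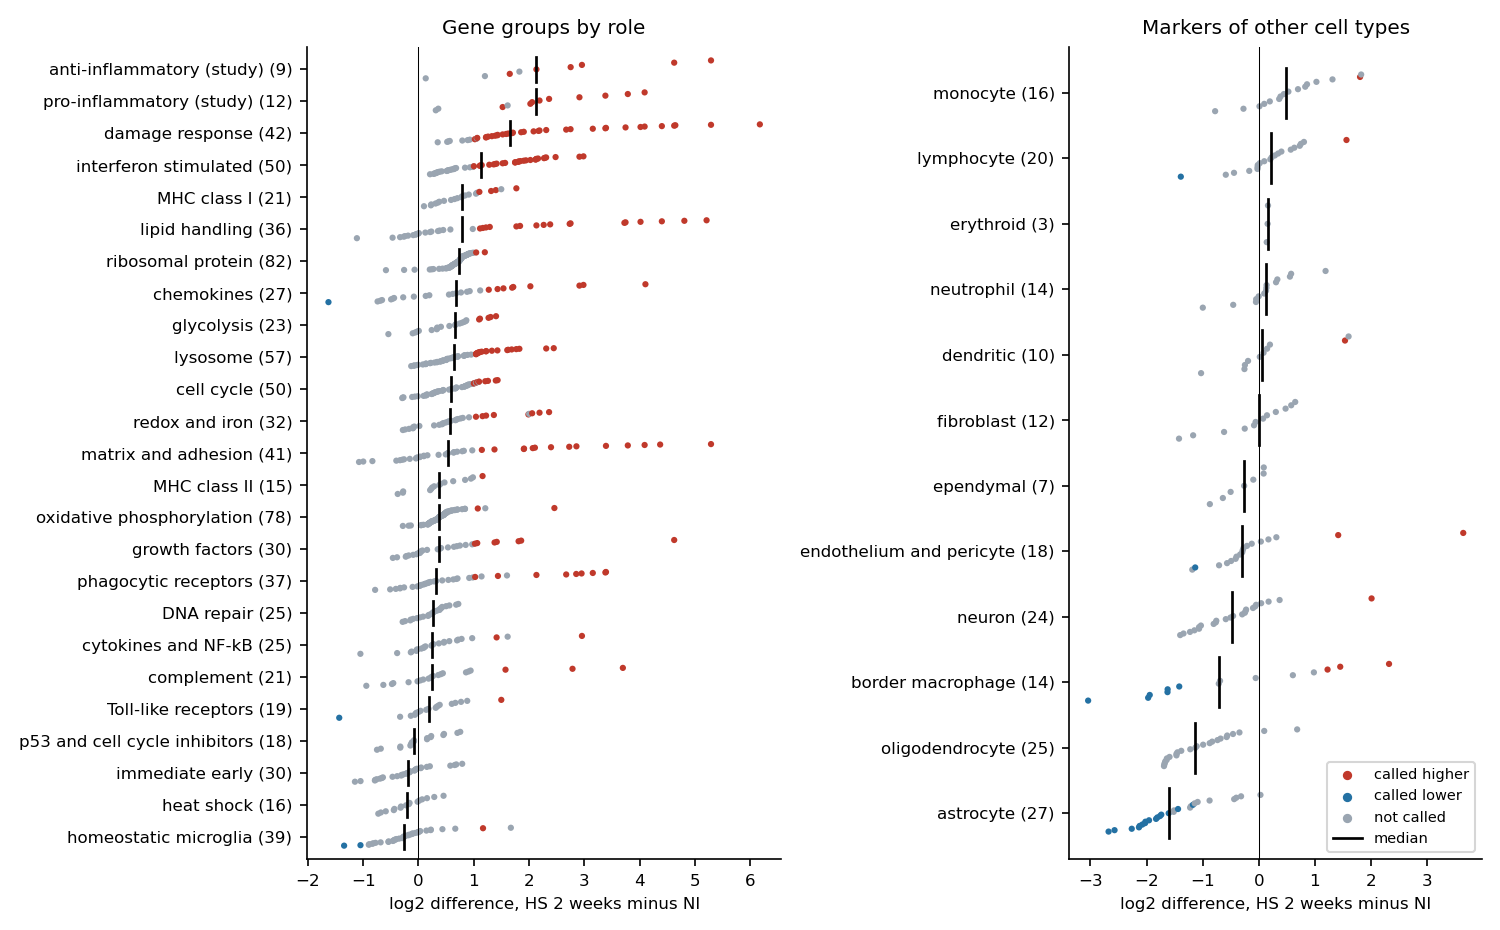
Log2 difference (HS 2 weeks minus NI) of every gene of each list, by role (left) and by cell type marked (right), with the number of genes in brackets. Red points were called higher, blue lower and grey not called, and black bars are list medians, which run from -0.27 for homeostatic microglia to 2.13 on the left and from -1.60 for astrocyte markers to 0.49 for monocyte markers on the right.

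Markers of other cell types were examined next. Border macrophages, which line the meninges and vessels, gave 6 falls and 3 rises of 14 markers (0.797% and 2.43% of all genes), with a median of -0.70 and sums of 752, 772 and 734 CPM in NI and 531, 485 and 518 CPM after HS. *Lyve1*, a hyaluronan receptor, had 12.1, 13.5 and 11.99 and 1.56, 1.07 and 0.725 CPM (log2 difference -3.04 ± 0.32, adjusted p = 1.12e-06), *Mrc1*, the mannose receptor, 69.5, 57.1 and 53.7 and 18.4, 24.2 and 24.2 CPM (log2 difference -1.42 ± 0.20, adjusted p = 6.64e-05), and *Cbr2*, a carbonyl reductase, 18.7, 22.01 and 21.6 and 3.43, 4.92 and 7.37 CPM (log2 difference -1.94 ± 0.28, adjusted p = 8.64e-05). Against these falls, *Siglec1* (1.23, adjusted p = 0.00462), *Ms4a7* (1.45, adjusted p = 0.0113) and the scavenger receptor *Colec12* (2.32, adjusted p = 2e-06) rose, as log2 differences. Monocyte markers gave 1 rise of 16 (2.43% of all genes), *Ms4a4c* (log2 difference 1.81 ± 0.28, adjusted p = 0.000239), with sums of 55.95, 63.8 and 71.1 and 115, 123 and 91.7 CPM. *Ccr2*, the chemokine receptor of inflammatory monocytes, had 14.6, 20.1 and 19.3 and 23.4, 22.2 and 16.5 CPM (log2 difference 0.20 ± 0.45, adjusted p = 0.897).

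Neutrophil markers gave 0 calls of 14 with limma, edgeR or DESeq2, and 0 at an unadjusted p under 0.05, with sums of 791, 845 and 816 and 992, 832 and 888 CPM, most of it *Csf3r*. Lymphocyte markers gave *Cd5* higher and *Il7r* lower of 20, dendritic markers *Ccl22* higher of 10, endothelium and pericyte markers *Cspg4* and *Flt1* higher and *Pecam1* lower of 18, and neuron markers 1 higher of 24. These few calls stand beside 2.43% of all genes called higher and 0.797% called lower. The *Cd5* call was lost in 2 alternative fits and the *Pecam1* call in 4. *Cspg4*, the proteoglycan NG2, had 2.50, 3.35 and 2.78 CPM in NI and 90.9, 22.9 and 34.2 CPM after HS (log2 difference 3.64 ± 0.37, adjusted p = 7.2e-07), while the pericyte markers *Rgs5* and *Vtn* were low at 3.28, 2.32 and 2.49 and 1.56, 1.92 and 0.966 CPM and at 4.95, 5.28 and 3.17 and 1.72, 1.92 and 1.33 CPM. Fibroblast (12), ependymal (7) and erythroid (3) markers had 0 calls with limma, edgeR or DESeq2, with 3, 0 and 0 at an unadjusted p under 0.05. Over all genes, 2708 of 16810 had an unadjusted p under 0.05. The part of any of these cells in the results was not tested.

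After *Lyve1*, the largest falls were led by genes that astrocytes are known to express. Of 27 astrocyte markers, 16 were called lower and 0 higher, against 0.797% and 2.43% of all genes, with a median of -1.60. The list summed to 2378, 1883 and 1597 CPM in NI and 596, 1329 and 1180.5 CPM after HS. *Slc1a2*, the glutamate transporter GLT-1, had 152, 99.9 and 87.4 CPM in NI and 8.73, 45.96 and 41.5 CPM after HS (log2 difference -2.07 ± 0.47, adjusted p = 0.00903). *Sparcl1*, a secreted matrix protein, had 252, 153 and 111 and 17.5, 65.4 and 42.5 CPM (log2 difference -2.13 ± 0.52, adjusted p = 0.015). NI replicate 1 was the highest and HS replicate 1 the lowest sample in both genes. The 16 calls became 5 without NI replicate 1, 9 without NI replicate 2 and 5 without HS replicate 1, and the whole count of genes lower than NI went from 134 to 61, 69 and 67. *Gfap*, the astrocyte filament gene, was not called, at 52.6, 54.6 and 28.3 and 36.2, 45.3 and 52.9 CPM (log2 difference 0.03 ± 0.33, adjusted p = 0.982). Oligodendrocyte markers had 0 calls of 25 by limma, edgeR or DESeq2 and a median of -1.13. An unadjusted p under 0.05 was reached by 15 of the 25, a larger share than the 2708 of 16810 over all genes. The sums of the 25 markers overlapped, at 6427, 4746 and 3629.5 CPM in NI and 4526, 5246 and 6108 CPM after HS. A large part of each sum was *Trf*, at a mean of 2432 CPM in NI and 3870 CPM after HS (log2 difference 0.68). Only 2 of the 25 differences were positive, that of *Trf* among them, so the sums do not show the change of most members.

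**Figure D4:**
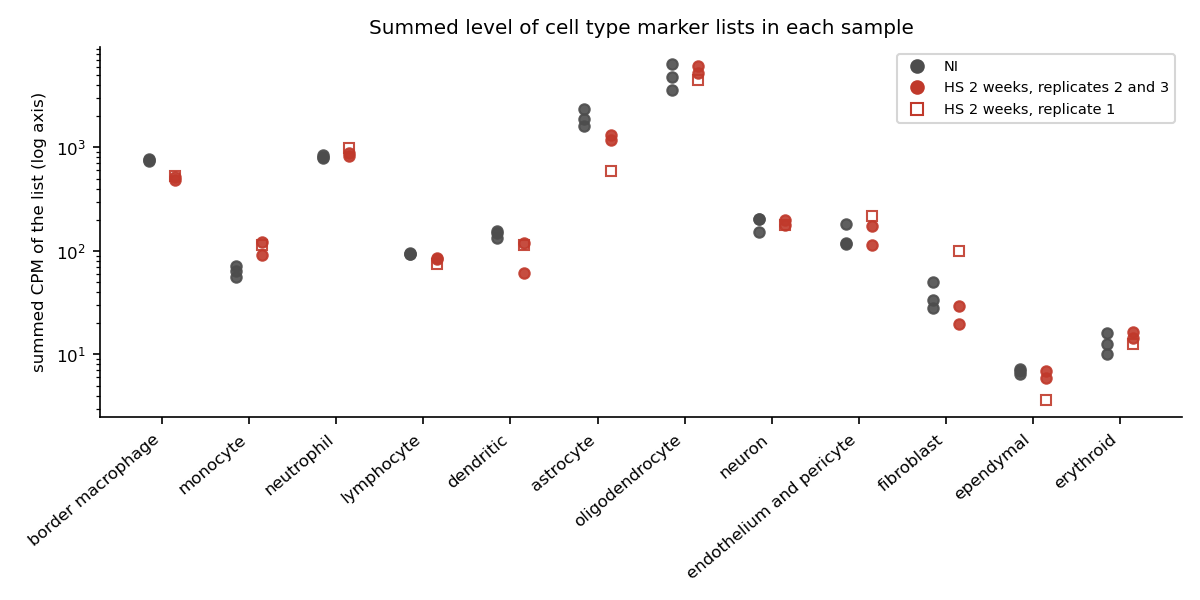
Summed CPM (log axis) of each cell type marker list in each sample, with NI in grey, HS 2 weeks replicates 2 and 3 as filled red circles and HS replicate 1 as an open square. HS replicate 1 has the lowest astrocyte sum (596 CPM) and the highest fibroblast sum (99.3 CPM) of the 6 samples.

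HS replicate 1 stood apart from replicates 2 and 3 in further genes. Immediate-early genes, which respond within minutes to stimulation or handling of cells, summed to 9522, 14782 and 14610.5 CPM in NI and 4017, 17998 and 18519.9 CPM after HS. *Fos* had 1604, 2879 and 2806 and 531, 3731 and 3738 CPM, and *Klf4* had 261, 393 and 454 and 32.3, 446 and 362 CPM. FT 2 weeks replicate 1 showed the same split from its group: in the 3 FT samples the list summed to 2628, 14123 and 14317 CPM, *Fos* had 225, 2281 and 2552 CPM and *Klf4* had 20.6, 269 and 313 CPM. In FT 1 week replicates 1, 2 and 3 the list summed to 8728, 4008 and 3394 CPM, so low sums were not particular to the 2 week samples numbered 1. What sets these samples apart was not tested. None of the 30 was called by limma, edgeR or DESeq2, and 0 had an unadjusted p under 0.05, while the median difference of the list went from -0.19 to 0.39 without HS replicate 1. Over all genes, 2708 of 16810 had an unadjusted p under 0.05 against NI. Heat shock genes summed to 11012, 11254 and 11478 and 7317, 13371 and 14435 CPM, and to 7528, 13260.5 and 11703 CPM in FT 2 weeks, with 0 of 16 called by limma, edgeR or DESeq2, 0 at an unadjusted p under 0.05 and a median that went from -0.20 to 0.11. In HS replicate 1 *Col1a1*, type I collagen, had 30.3 CPM against 0.428 and 1.33, *Mpo*, neutrophil myeloperoxidase, had 19.8 CPM against 0.855 and 0.604, and *Arg1*, arginase 1, had 0.624 CPM against 9.62 and 7.13. Without it 369 genes were called higher and 67 lower.

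The state at 2 weeks was compared with 72 h after the same lesion, the acute phase. HS 2 weeks had 230 genes higher and 567 lower than HS 72 h, or 1.37% and 3.37% of all genes. With columns scaled to a common total the higher count was 409, and 51.1% of calls were higher in place of 28.9%. Without HS 72 h replicate 1, 517 genes were called, 127 of them higher. Of the 409 genes higher than NI at 2 weeks, 73 were also higher than at 72 h, 34 were lower and 302 were not called. The largest falls were in genes of cell division. Of 50 cell cycle genes, 48 were lower than at 72 h, with a median of -2.88. *Ccnb1*, cyclin B1, had 149.9, 92.7 and 77.5 CPM at 72 h and 6.71, 5.56 and 4.83 CPM at 2 weeks (log2 difference -4.07 ± 0.31, adjusted p = 1.81e-08), and *Rrm2*, a subunit of ribonucleotide reductase, had 289, 152 and 108 and 12.5, 13.7 and 7.97 CPM (log2 difference -3.86 ± 0.32, adjusted p = 3.56e-08). Against NI, 8 of the 50 were called higher (2.43% of all genes), *Cdk1* at 5.06, 6.18 and 5.18 CPM in NI against 12.2, 15.2 and 14.01 CPM (log2 difference 1.26 ± 0.22, adjusted p = 0.000998) and *Top2a* at 9.12, 7.08 and 6.81 against 19.8, 20.7 and 14.7 CPM (log2 difference 1.21 ± 0.22, adjusted p = 0.00139). That count was 2 with scaled columns and 4 without NI replicate 2, settings that called 244 and 327 of all genes higher. DNA repair genes had 11 of 25 lower than at 72 h, and against NI 0 of 25 were called by limma, edgeR or DESeq2, with 3 at an unadjusted p under 0.05. A list of p53 targets and cell cycle inhibitors had 0 of 18 called against NI by the same tools, with 2 at an unadjusted p under 0.05. Over all genes, 2708 of 16810 had an unadjusted p under 0.05 against NI, a larger share than in either list.

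Chemokines, a complement component and an integrin were among the largest rises from 72 h to 2 weeks. *Cxcl9* had 0.793, 1.22 and 0.615 CPM at 72 h and 10.9, 16.03 and 14.7 CPM at 2 weeks (log2 difference 3.39 ± 0.27, adjusted p = 3.32e-08). *Itgax* had 10.4, 28.7 and 27.1 and 201, 145 and 153 CPM (log2 difference 3.00 ± 0.28, adjusted p = 1.98e-07), *C3* had 13.8, 16.8 and 14.8 and 106, 94.1 and 84.7 CPM (log2 difference 2.61 ± 0.21, adjusted p = 3.07e-08), and *Postn*, the matrix protein periostin, had 6.97, 5.18 and 4.92 and 35.9, 52.4 and 34.1 CPM (log2 difference 2.72 ± 0.24, adjusted p = 8.24e-08). In the lists that follow, counts are beside 1.37% of all genes higher and 3.37% lower than at 72 h. In the damage response list 8 of 42 genes were higher and 1 lower: *Gpnmb* had 57.1, 74.2 and 97.6 CPM at 72 h (log2 difference 1.71 ± 0.29, adjusted p = 0.000576) and *Igf1* had 67.5, 127 and 85.1 CPM (log2 difference 1.12 ± 0.26, adjusted p = 0.00706), while *Spp1* was already at 3789, 5235 and 3460.0 CPM (log2 difference -0.16 ± 0.25, adjusted p = 0.74). In the interferon list, 3 of 50 were higher (*Cxcl9*, *Ccl5* and *Lgals3bp*) and 3 lower (*Ifitm1*, *Ifitm2* and *Ifi27l2a*). In MHC class I, 4 of 21 were higher, *H2-K1* among them (log2 difference 1.25 ± 0.22, adjusted p = 0.000615). Border macrophage markers had 7 falls and 1 rise of 14. Within the matrix list 3 of 41 were higher and 11 lower, *S100a4*, *S100a6*, *S100a10*, *Timp1* and *Anxa2* among the latter. Of the 134 genes lower than NI at 2 weeks, 126 were not called against 72 h.

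**Figure D5:**
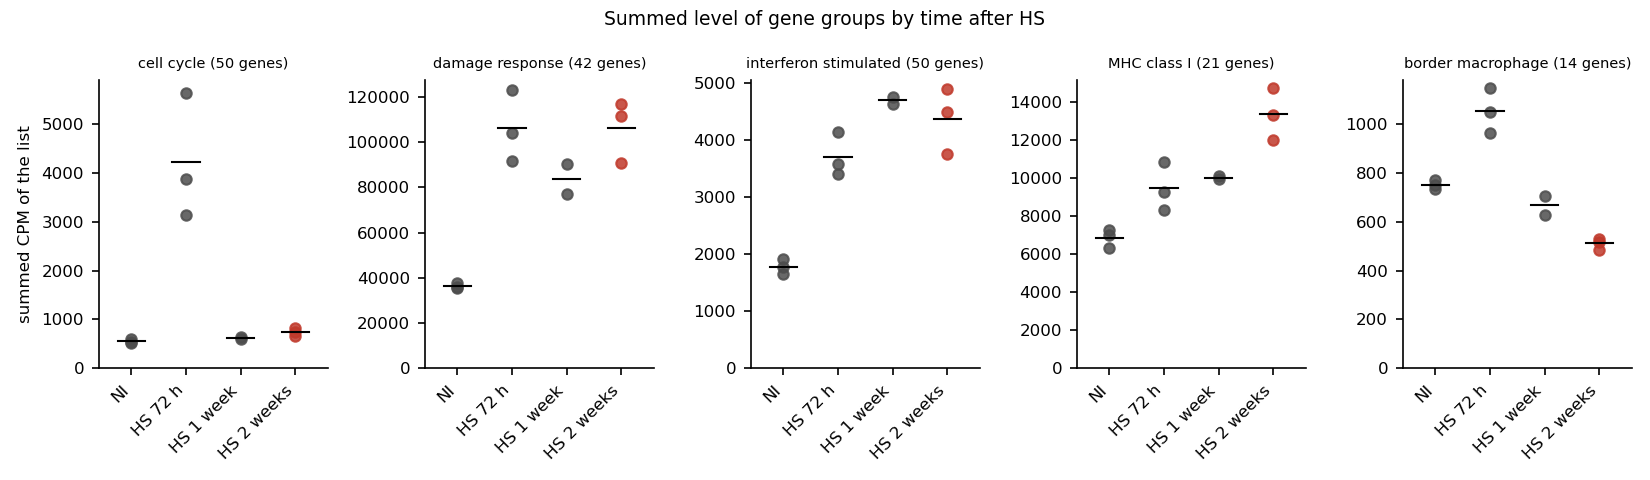
Summed CPM of 5 gene lists in NI and at 72 h, 1 week and 2 weeks after HS, with 1 point per sample (2 samples at 1 week, 3 elsewhere), a bar at the group mean and HS 2 weeks in red. The cell cycle sum was 3143 to 5655 CPM at 72 h and 658 to 817 CPM at 2 weeks, and the border macrophage sum was lowest at 2 weeks.

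HS at 2 weeks was then set beside FT at 2 weeks, which cuts the whole cord. No gene was called between HS 2 weeks and FT 2 weeks with limma or with edgeR's quasi-likelihood test, and 438 of 16810 had an unadjusted p under 0.05. The likelihood ratio test and DESeq2 each called 1, *Cxcl13*. *Cxcl13* had 17.3, 13.5 and 10.02 CPM after HS and 39.03, 38.7 and 38.03 CPM after FT (log2 difference HS minus FT -1.50 ± 0.32, adjusted p = 1). *Ccl5* had 83.9, 77.8 and 75.1 and 171, 169 and 178 CPM (-1.12 ± 0.26, adjusted p = 1), and *Isg15* had 23.1, 29.3 and 41.5 and 51.6, 59.6 and 61.6 CPM (-0.91 ± 0.20, adjusted p = 1). HS samples lay below FT samples without overlap in these 3 genes, which was largely fixed by picking them for a small p in this comparison. *Upk1b*, among the 5 genes with the smallest p in the other direction, had 18.7, 21.2 and 16.4 CPM after HS and 10.9, 10.4 and 8.48 CPM after FT. Without replicate 1 of both groups, left out after the data were seen, limma again called 0 genes. Over the interferon list, 2 of 50 differences were positive and the median was -0.45, against -0.01 over all genes and -0.13 over the damage response list, where 5 of 42 were positive. None of these genes passed the adjusted p, which does not show that the lesions act alike.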

How the data were processed

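Microglia RNA was prepared as SMARTer cDNA and Nextera libraries and sequenced on a HiSeq. Per the study's methods and the submitters' processing notes, the authors aligned reads to mm10 with TopHat2 2.0.9, counted them per gene with HTSeq 0.5.4p3, kept genes with enough counts and normalized with edgeR 3.3.6. The strand setting is not given in the sources used here. The deposited values are a signal that the authors made by dividing read counts by a factor for library size; they are called CPM here, although the columns do not add up to the same total. All 336200 values (100%) were whole multiples of the value of 1 read in their column, within 0.001 of a step, and the recovered read counts gave a depth of 4589874 to 13937586 reads in the samples compared.

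Here log2(CPM + 0.5) was fitted with limma 3.58.1 (trend, 1 mean per group, all 20 samples, R 4.3.3), with Benjamini-Hochberg adjustment over 16810 genes. edgeR 4.0.16 and DESeq2 1.42.0 were run on the recovered reads as alternatives, next to other scalings, filters and left-out samples, and the script was tested on simulated data. Coordinates came from GENCODE vM21 (GRCm38) for 16629 of 16810 symbols. The 37 gene lists and the comparison were chosen with earlier results of these data known. Genes were named by rule: the 15 largest rises and falls without overlap, per list the 6 smallest adjusted p, the 2 highest in NI and those called against the list, the 10 largest each way against 72 h, the 5 smallest p each way against FT, and genes of the study's interest. *Col1a1*, *Mpo*, *Lag3*, *Klf4* the genes of chromosomal runs and any other named genes were chosen after their values were seen. Some genes that the rule picks are not reported here.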

Additional observations from a re-analysis of the deposited data

Results flagged for a closer look

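The time after HS set genes apart: 797 genes passed the limma test of HS 2 weeks against HS 72 h. The log2 differences, 2 weeks minus 72 h, that were largest among genes whose groups did not overlap were *Cxcl9* (3.39), *Cxcl13* (3.31), *Mcpt2* (3.298), *Itgax* (3.00), *Slc45a3* (2.87), *Postn* (2.73), *Ccl5* (2.69), *Camp* (2.63), *C3* (2.61) and *Mmp12* (2.55). The call for *Camp* was lost when the libraries with low *Fth1* were left out (adjusted p = 0.107). The largest negative differences were *Pbk* (-4.11), *Ccnb1* (-4.07), *Plk1* (-3.91), *2810417H13Rik* (-3.90), *Rrm2* (-3.86), *Ccnb2* (-3.85), *Nusap1* (-3.74), *Cep55* (-3.74), *Ube2c* (-3.68) and *Cdca3* (-3.64). These 20 genes were each tested between the 2 time points, with 3 samples at each. Groups of 3 are too small for a test of single outlying samples.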

How the results depend on the processing

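The count against NI (543, of which 409 higher and 134 lower) went to 839 with 646 higher when no fold limit was set, and to 244 higher and 434 lower with columns scaled to a common total. Leaving out 1 sample of either group gave 396 to 552 in all, 327 to 403 higher and 61 to 149 lower, with 61 lower without NI replicate 1, 69 without NI replicate 2 and 67 without HS replicate 1. Against 72 h (797, of which 230 higher), no fold limit gave 1718 with 570 higher and 1148 lower, left-out samples gave 517 to 1074 in all and 127 to 334 higher, and the higher count was 148 with 1 CPM added, 409 with scaled columns and 436 by the likelihood ratio test. Against FT the count of 0 became 1, a lower gene, by the likelihood ratio test and by DESeq2. No called value changed sign under any setting run. The cause was not tested where a count moved. The other settings, a filter of 1 CPM, other values added, median ratios, quantile normalization, thinned reads, edgeR and DESeq2, gave 466.5 to 629 calls against NI. The term for libraries with low *Fth1* (589 calls) and their removal (515) were chosen after seeing the data, as was the FT comparison without both samples numbered 1 (0 calls). The replicate numbers did not pair the HS 2 weeks samples with NI (correlations of same-numbered deviations -0.03, -0.15 and -0.11), HS 72 h (0.01, 0.19 and 0.01) or FT 2 weeks (0.38, -0.0017 and -0.09, the samples numbered 1 deviating together), and the replicate block gave 530 calls against NI, 799 against 72 h and 0 against FT. The weakest named calls were *Aqp4*, lost in 12 settings, *Ctsd* in 11, *Cd40* in 10 and *Nrp1* in 9. Depth limits genes under about 3 reads, 0.641 CPM in the shallowest HS sample.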

Other observations

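Protease genes known from mast cells were among the genes higher 2 weeks after HS, and were picked after their values were seen. *Mcpt2* had 0.358, 0.257 and 0.192 CPM in NI and 7.64, 4.06 and 7.25 CPM after HS (log2 difference 3.11 ± 0.52, adjusted p = 0.000594), *Cma1* had 0.298, 0.386 and 0.480 CPM in NI and 2.34, 4.28 and 3.86 CPM after HS (log2 difference 2.14 ± 0.55, adjusted p = 0.0245) and *Tpsb2* had 1.19, 0.129 and 0.192 CPM in NI and 2.49, 5.77 and 7.61 CPM after HS (log2 difference 2.56 ± 0.55, adjusted p = 0.00582). *Mcpt1*, *Mcpt2* and *Cma1* lie on chr14:55941451-56044642, where all 3 genes of the table were called higher, and as near copies they may share reads. The ends of this stretch were set by the called genes, so its count was largely fixed by that choice. Other mast cell genes were not called. *Cpa3*, a carboxypeptidase, had 0.477, 0.515 and 0.480 CPM in NI and 0.468, 4.06 and 2.05 CPM after HS (log2 difference 1.18 ± 0.48, adjusted p = 0.207), *Kit*, the stem cell factor receptor, had 0.894, 1.42 and 1.82 CPM in NI and 2.49, 2.14 and 1.93 CPM after HS (log2 difference 0.54 ± 0.29, adjusted p = 0.378), and *Ms4a2*, a chain of the IgE receptor, had 0.953, 0.515 and 1.63 CPM in NI and 1.25, 0.641 and 0.845 CPM after HS (log2 difference -0.08 ± 0.31, adjusted p = 0.945).

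A run of genes of the SLAM family of immune receptors on chr1:171559193-171705258 was called higher as well, in 4 of 4 genes. Its ends too were set by the called genes, so this count was largely fixed by that choice. *Ly9* had 9.30, 11.1 and 12.9 CPM in NI and 89.04, 36.3 and 35.4 CPM after HS (log2 difference 2.10 ± 0.36, adjusted p = 0.00072), with HS replicate 1 far above the other HS samples, and *Slamf7* had 3.87, 3.99 and 5.37 CPM in NI and 16.1, 20.5 and 18.6 CPM after HS (log2 difference 1.95 ± 0.36, adjusted p = 0.00157). *Cd244* had 9.83, 5.66 and 6.52 CPM in NI and 27.3, 29.5 and 24.3 CPM after HS (log2 difference 1.84 ± 0.23, adjusted p = 1.65e-05), and it overlaps *Ly9* on the other strand, so that reads of the pair cannot be told apart without strand. *Cd48*, the ligand of CD244, had 169, 137 and 189 CPM in NI and 303, 422 and 333 CPM after HS (log2 difference 1.09 ± 0.26, adjusted p = 0.0154).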
